A study of Homo sapiens with 24 samples.

Results

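FAM171A1, NT5DC2 and ATPSCKMT are 3 protein-coding genes whose transcripts stood among the largest falls when A549 cells were given interferon beta (IFN). They were chosen by those falls: for each siRNA, genes called by limma at 8 h and at 12 h, whose IFN and mock libraries did not overlap and whose higher group reached 5 TPM, were ranked by their average change over both times, and the 5 largest falls were named. The 3 genes come from 16062 genes tested in a table of 60609 gene rows, and all 3 passed the filter on low values. Because the IFN changes selected them, those changes are given below as a description, with standard errors and no test.

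A549 is an established human line of lung adenocarcinoma origin. Cells were transfected for 48 h with a pool of siRNAs against BOP1, a factor needed to mature the large ribosomal subunit (siBOP1), or with a control siRNA against firefly luciferase (siFLuc), and then kept as mock or given IFN at 1000 U/mL. Polyadenylated RNA was sequenced after 8 h or 12 h, which gave 8 groups of 3 libraries: siFLuc mock, siFLuc IFN, siBOP1 mock and siBOP1 IFN, each at both times. All groups, controls included, were transfected, 1 cell line was used, and depletion of BOP1 was partial.

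IFN binds a receptor that activates JAK kinases, and the STAT and IRF9 complex they form switches on interferon-stimulated genes through a short promoter element, the ISRE. Genes that lose transcript under IFN are less well described, and lower transcript can follow from less synthesis or faster decay. FAM171A1 (astroprincin) is a single-pass membrane protein linked to cell shape and actin stress fibres. NT5DC2 belongs by sequence to the 5'-nucleotidase family, enzymes that remove the phosphate from nucleotides, and ATPSCKMT is a mitochondrial methyltransferase that modifies a lysine in the c subunit of ATP synthase.

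In GENCODE 29 on GRCh38, FAM171A1 (ENSG00000148468.17) lies on chromosome 10 from 15211643 to 15371062, NT5DC2 (ENSG00000168268.11) on chromosome 3 from 52524385 to 52535054, and ATPSCKMT (ENSG00000150756.14, there still under its older name FAM173B) on chromosome 5 from 10226330 to 10249897. All 3 are on the minus strand. RefSeq promoter windows were matched for 2 of the 3 genes, and the 250 bases before the RefSeq start are shown as a description. The rule chose genes that fell with IFN, so their moving together is not a separate result. The windows are chr10:15371290-15371539 for FAM171A1 and chr3:52535028-52535277 for NT5DC2 (GRCh38.p14, minus strand, written 5′ to 3′), with matches to the GC box GGGCGG on either strand in capitals.
FAM171A1: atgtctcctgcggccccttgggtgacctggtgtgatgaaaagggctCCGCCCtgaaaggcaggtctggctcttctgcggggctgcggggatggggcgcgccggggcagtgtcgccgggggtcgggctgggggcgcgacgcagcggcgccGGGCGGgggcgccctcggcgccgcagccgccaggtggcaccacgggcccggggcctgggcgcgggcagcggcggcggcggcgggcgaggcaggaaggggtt
NT5DC2: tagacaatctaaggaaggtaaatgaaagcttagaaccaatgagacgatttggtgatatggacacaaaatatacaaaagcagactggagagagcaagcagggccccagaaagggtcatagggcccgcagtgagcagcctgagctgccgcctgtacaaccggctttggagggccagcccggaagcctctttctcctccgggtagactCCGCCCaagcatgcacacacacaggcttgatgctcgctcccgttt

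The GC box is a common binding element of Sp-family factors. It was found at 2 places before FAM171A1 and 1 before NT5DC2, and it occurs in 45.0% of all 35116 RefSeq windows of 300 bases (the 250 bases before and 50 after each start). Neither window of 300 bases held the ISRE core, GAAA repeated after a gap of 2 bases (in 3.57% of all windows), the STAT element GAS TTCNNNGAA (7.66%), the E-box CACGTG (7.26%) or the TATA box TATAAA (11.5%), each searched on both strands. The printed stretch is 78.4% G and C for FAM171A1 and 53.6% for NT5DC2, against a median of 58.0% over all such windows. The NT5DC2 window lies inside the body of UQCC5, a gene read from the opposite strand.

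Each library held 13844 to 14509 genes at 1 TPM or more (TPM is the abundance of a gene's transcripts per length, scaled to a fixed column total). The total keeps no sequencing depth, so the depth behind each value is unknown. A549 markers (KRT8, KRT18, KRT7, ALDH1A1, AKR1B10 and AKR1C1) were abundant in every library and EPCAM was low (1.92 to 5.48 TPM). The 7 summed to 12310 to 14400 TPM in mock and 12310 to 14620 TPM in IFN libraries. The 8 markers of other cell types summed to 5.44 to 19.7 TPM in mock and 5.78 to 18.7 TPM in IFN libraries, nearly all of it COL1A1, and CD3E was listed at 0 throughout. BOP1 fell with its siRNA by -1.77 and -1.69 on the log2 scale at 8 h (mock, IFN) and by -2.0 and -1.92 at 12 h (limma adjusted p at most 1.6e-05). The interferon-stimulated gene IFIT1 rose with IFN by 8.39 to 8.98 (adjusted p at most 4.4e-14). At 12 h the libraries numbered 4 stood apart: r was 0.961 to 0.977 for pairs with them and 0.985 to 0.988 between the libraries numbered 1 and 2.

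FAM171A1 had a middling level in mock cells and a low one with IFN. In the siFLuc mock libraries numbered 1, 2 and 4 it was at 10.6, 9.55 and 9.96 TPM at 8 h, a mean of 10.03 ± 0.52 TPM (SD, n = 3). In the siFLuc IFN libraries at 8 h it was at 1.32, 1.04 and 1.84 TPM, or 1.40 ± 0.40 TPM (SD, n = 3), which is 13.97% of mock. Every IFN library was below every mock library. At 12 h the siFLuc mock values were 10.1, 9.92 and 8.97 TPM and the IFN values 2.08, 1.81 and 1.88 TPM, so that IFN left 19.9% of mock. In siBOP1 cells at 8 h the mock values were 11.8, 11.4 and 13.5 TPM and the IFN values 1.93, 1.16 and 2.16 TPM, or 14.3% of mock. At 12 h they were 11.3, 12.2 and 10.9 TPM in mock and 2.13, 1.83 and 2.98 TPM with IFN, or 20.2% of mock. The remaining share was thus similar with either siRNA and lower at 8 h than at 12 h.

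NT5DC2 was the most abundant of the 3 per length, with a mean of 50.7 TPM over the 12 mock libraries, at or above 82.8% of the genes tested. FAM171A1 (10.8 TPM) and ATPSCKMT (16.4 TPM) were nearer the median of tested genes, 11.3 TPM. In siFLuc cells at 8 h NT5DC2 was at 46.0, 41.8 and 54.3 TPM in mock and at 12.5, 11.2 and 13.96 TPM with IFN, or 26.5% of mock. At 12 h it was at 48.1, 46.1 and 28.6 TPM in mock and at 13.4, 12.3 and 10.1 TPM with IFN, or 29.2% of mock. The mock library numbered 4 was low here, and the IFN library with that number was the lowest of its group too. In siBOP1 cells the mock values were 57.9, 48.9 and 62.3 TPM at 8 h and the IFN values 11.2, 14.1 and 15.7 TPM, or 24.2% of mock. At 12 h the mock values were 56.7, 57.3 and 60.1 TPM and the IFN values 10.9, 11.8 and 11.6 TPM, or 19.7% of mock. Over all groups the 12 mock libraries ran from 28.6 to 62.3 TPM and the 12 IFN libraries from 10.1 to 15.7 TPM, with no overlap.

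ATPSCKMT kept the largest share of its transcript at 8 h and lost more by 12 h. In siFLuc cells at 8 h it was at 19.1, 16.1 and 17.4 TPM in mock and at 5.00, 5.18 and 5.92 TPM with IFN, or 30.6% of mock. At 12 h it was at 17.1, 12.0 and 9.22 TPM in mock and at 2.95, 2.22 and 3.17 TPM with IFN, or 21.7% of mock. The 12 h mock libraries were spread widely, with number 4 again the lowest, but each stayed above every IFN library. In siBOP1 cells the mock values were 20.0, 17.7 and 16.6 TPM at 8 h and the IFN values 3.42, 4.57 and 5.79 TPM, or 25.4% of mock. At 12 h the mock values were 16.1, 17.6 and 17.7 TPM and the IFN values 2.32, 2.59 and 3.30 TPM, or 15.98% of mock. All 6 IFN libraries at 12 h were below all 6 at 8 h.

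**Figure D1:**
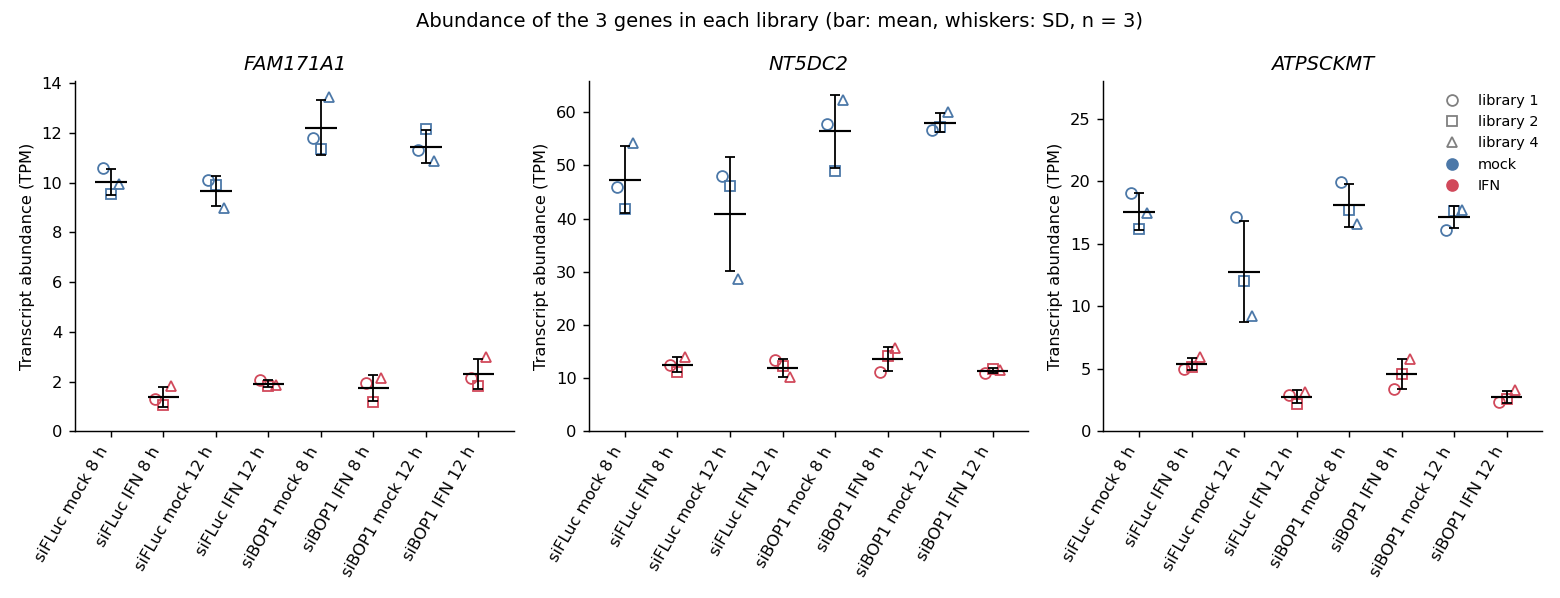
Abundance (TPM, linear axes from 0) of FAM171A1, NT5DC2 and ATPSCKMT in each of the 24 libraries by group; circles, squares and triangles are the libraries numbered 1, 2 and 4, bars the group mean and whiskers the SD (n = 3). The red IFN points lie below all blue mock points in each panel, and the siFLuc mock 12 h triangle is the lowest blue point in all 3.

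Ordered by group mean, FAM171A1 was highest in siBOP1 mock cells at 8 h (12.2 ± 1.10 TPM) and 12 h (11.45 ± 0.66 TPM), then in siFLuc mock cells at 8 h and 12 h (9.67 ± 0.61 TPM, SD, n = 3 each). The libraries of neighbours in that order overlapped, except that all 6 siBOP1 mock libraries (10.9 to 13.5 TPM) lay above all 6 siFLuc mock libraries (8.97 to 10.6 TPM). Under IFN the means ran from 2.31 ± 0.59 TPM in siBOP1 cells at 12 h to 1.40 ± 0.40 TPM in siFLuc cells at 8 h (SD, n = 3 each), with overlap between neighbours. The NT5DC2 order was siBOP1 mock at 12 h (58.0 ± 1.81 TPM) and 8 h (56.4 ± 6.83 TPM), then siFLuc mock at 8 h (47.4 ± 6.34 TPM) and 12 h (40.9 ± 10.7 TPM), each SD with n = 3, and again neighbours overlapped. Its 4 IFN means lay close together, from 11.45 ± 0.46 to 13.7 ± 2.27 TPM (SD, n = 3). For ATPSCKMT, 3 mock groups had means of 17.1 to 18.1 TPM and the siFLuc mock group at 12 h 12.8 ± 4.0 TPM (SD, n = 3). Its IFN means were 5.37 ± 0.49 and 4.597 ± 1.19 TPM at 8 h and 2.78 ± 0.50 and 2.74 ± 0.50 TPM at 12 h (siFLuc and siBOP1, SD, n = 3 each). The step between the times in that order was the place where neighbouring IFN groups did not overlap.

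Libraries with the same number give 12 ratios of IFN to mock per gene. They ran from 10.2% to 27.4% for FAM171A1 (median 17.3%), from 19.3% to 35.4% for NT5DC2 (median 26.2%) and from 14.4% to 35.0% for ATPSCKMT (median 22.2%). NT5DC2 thus kept the largest median share and FAM171A1 the smallest. In bulk RNA such a drop cannot be divided between fewer cells that express the gene and less RNA per cell; these cannot be told apart.

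As a log2 difference of TPM + 1, a scale on which low genes look less changed than they are, FAM171A1 with IFN differed from mock by -2.21 (8 h) and -1.87 (12 h) under siFLuc and by -2.28 (8 h) and -1.92 (12 h) under siBOP1, with an SE of 0.16 for each. NT5DC2 differed by -1.83, -1.67, -1.97 and -2.25 in the same order (SE 0.16 each), and ATPSCKMT by -1.54, -1.83, -1.79 and -2.29 (SE 0.18 each). With a pseudocount of 0.1 the FAM171A1 values became -2.79, -2.27, -2.77 and -2.29. Of all genes tested, the share called lower with IFN was 5.07%, 6.43%, 9.11% and 7.58% in these comparisons and the share called higher 5.77%, 7.06%, 5.99% and 7.17%. After median-of-ratios rescaling the shares were 3.18%, 5.0%, 4.35% and 5.33% lower and 7.1%, 8.55%, 8.24% and 8.85% higher. The median of all genes was -0.09, -0.06, -0.14 and -0.08. Those calls chose the 3 genes, so nothing is read from the members' presence among them.

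The threshold of the rule fell in a close series. In siFLuc cells DANCR (-2.37), TNFRSF10D (-2.37) and ODC1 (-2.05) came before FAM171A1 (-2.04) and NT5DC2 (-1.75), as means of the 2 times, out of 340 genes that met the conditions. Just outside lay CERK (-1.74), RFLNB (-1.72) and, at place 8, ATPSCKMT (-1.69). In siBOP1 cells NT5DC2 (-2.11), FAM171A1 (-2.10) and ATPSCKMT (-2.04) held places 3 to 5 of 582, after TNFRSF10D (-2.50) and DANCR (-2.28) and before ODC1 (-2.01). DANCR is a long non-coding RNA, TNFRSF10D a decoy receptor for the death ligand TRAIL, and ODC1 the first enzyme of polyamine synthesis. In siFLuc cells TNFRSF10D was at -3.06 at 8 h and -1.68 at 12 h and DANCR at -2.04 and -2.71, while ODC1, at -2.14 and -1.97, had times about as close as FAM171A1, NT5DC2 and ATPSCKMT.

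**Figure D2:**
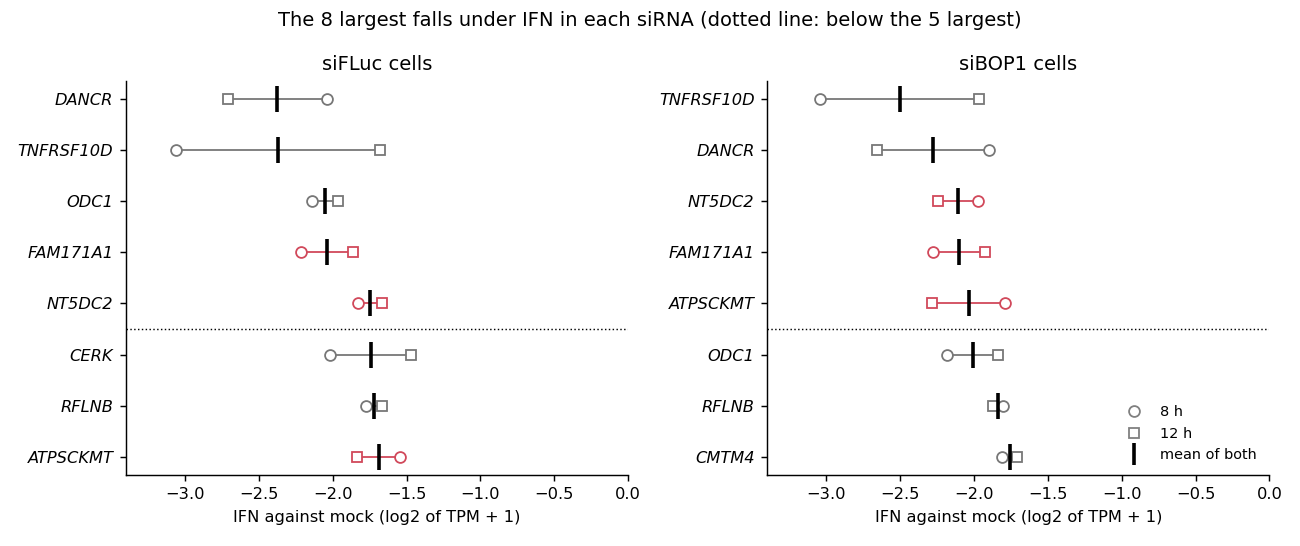
The 8 largest falls under IFN for each siRNA, on the log2(TPM + 1) scale: circles are the change at 8 h, squares at 12 h and black bars their mean, with FAM171A1, NT5DC2 and ATPSCKMT in red. The dotted line separates the 5 largest: ATPSCKMT is above it in siBOP1 cells (-2.04) and below it in siFLuc cells (-1.69).

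The siRNA comparison was not itself ranked and could be tested, although it uses the same libraries and values. ATPSCKMT was among the 5 largest falls in siBOP1 cells alone, so its siRNA differences are not free of the selection. The p-values given for these differences do not allow for it. None of the 3 genes was called with limma in any of the 4 comparisons of siBOP1 with siFLuc, where the share of all genes called was 2.16% and 1.6% in mock cells (8 h, then 12 h) and 2.0% and 0.66% under IFN. FAM171A1 was 0.26 and 0.22 higher with siBOP1 in mock cells at 8 h and 12 h (95% intervals -0.07 to 0.58 and -0.10 to 0.55, limma adjusted p 0.563 and 0.618). Under IFN the FAM171A1 differences were 0.19 and 0.17 (-0.14 to 0.52 and -0.16 to 0.49, adjusted p 0.68 and 0.889). These intervals hold 0 and values up to 0.58. The p-values measure only the spread between these libraries, which may be technical since the labels do not say that they came from separate cultures.

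NT5DC2 was 0.25 higher with siBOP1 in mock cells at 8 h (95% interval -0.09 to 0.59, limma adjusted p 0.624) and 0.53 higher at 12 h (0.19 to 0.87, adjusted p 0.125). With the column number as a replicate block the 12 h difference was again 0.53 and passed the threshold (limma adjusted p 0.0228), where 7.66% of all genes were called. Without the siFLuc mock 12 h library numbered 4 it was 0.29 (adjusted p 0.455). Under IFN the NT5DC2 differences were 0.11 at 8 h (-0.23 to 0.45, adjusted p 0.868) and -0.05 at 12 h (-0.39 to 0.29, adjusted p 0.979). For ATPSCKMT they were 0.04 (-0.34 to 0.42, adjusted p 0.973) and 0.44 (0.06 to 0.81, adjusted p 0.298) in mock cells, with 0.24 in place of 0.44 without the same library. Under IFN they were -0.21 (-0.58 to 0.17, adjusted p 0.708) and -0.02 (-0.39 to 0.36, adjusted p 0.995).

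That library was the lowest of the 12 mock libraries for all 3 genes, at 8.97 TPM for FAM171A1, 28.6 TPM for NT5DC2 and 9.22 TPM for ATPSCKMT. It also had the smallest mitochondrial share of the 24, 6.86% of TPM, where the others held 10.9% to 15.9%. Its part in the 12 h results was not tested beyond leaving it out. Without it the siFLuc IFN difference at 12 h was -1.91 for FAM171A1, -1.90 for NT5DC2 and -2.03 for ATPSCKMT.

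Time was compared as 12 h against 8 h within each siRNA and treatment, where 0.131% (siFLuc mock), 0.23% (siBOP1 mock), 3.53% (siFLuc IFN) and 2.96% (siBOP1 IFN) of all genes were called. The rule did not rank on time, but it used the same libraries and values, so these differences are not free of the selection. Their p-values do not allow for it. ATPSCKMT fell between the times in siFLuc IFN cells, by -0.76 (95% interval -1.14 to -0.38, limma adjusted p 0.0237), from 5.37 to 2.78 TPM. In siBOP1 IFN cells the difference was -0.57 (-0.95 to -0.19, adjusted p 0.0893), and it passed after median-of-ratios rescaling (-0.67, adjusted p 0.0443) or quantile normalization (-0.73, adjusted p 0.0478), where 3.67% and 2.36% of all genes were called. The siFLuc call was lost when the fit held just the libraries of both groups (adjusted p 0.17). It was also lost on leaving out the IFN library numbered 2 at 12 h (-0.65, adjusted p 0.0942), number 2 at 8 h (-0.78, adjusted p 0.0731) or number 4 at 8 h (-0.70, adjusted p 0.0994). In mock cells ATPSCKMT differed by -0.47 with siFLuc (-0.84 to -0.09, adjusted p 0.28), or -0.27 without the low library, and by -0.07 with siBOP1 (-0.45 to 0.31, adjusted p 0.946).

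FAM171A1 had time differences of the other sign under IFN, 0.30 in siFLuc and 0.27 in siBOP1 cells (95% intervals -0.03 to 0.62 and -0.05 to 0.60, limma adjusted p 0.306 and 0.381). In mock cells they were -0.05 (-0.37 to 0.28, adjusted p 0.93) and -0.08 (-0.41 to 0.24, adjusted p 0.92). NT5DC2 differed by -0.07 and -0.23 under IFN (-0.41 to 0.27 and -0.57 to 0.12, adjusted p 0.857 and 0.506). In mock cells NT5DC2 differed by -0.23 in siFLuc and 0.05 in siBOP1 cells (-0.57 to 0.11 and -0.29 to 0.39, adjusted p 0.579 and 0.964). Neither gene was called in any of these 8 comparisons.

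**Figure D3:**
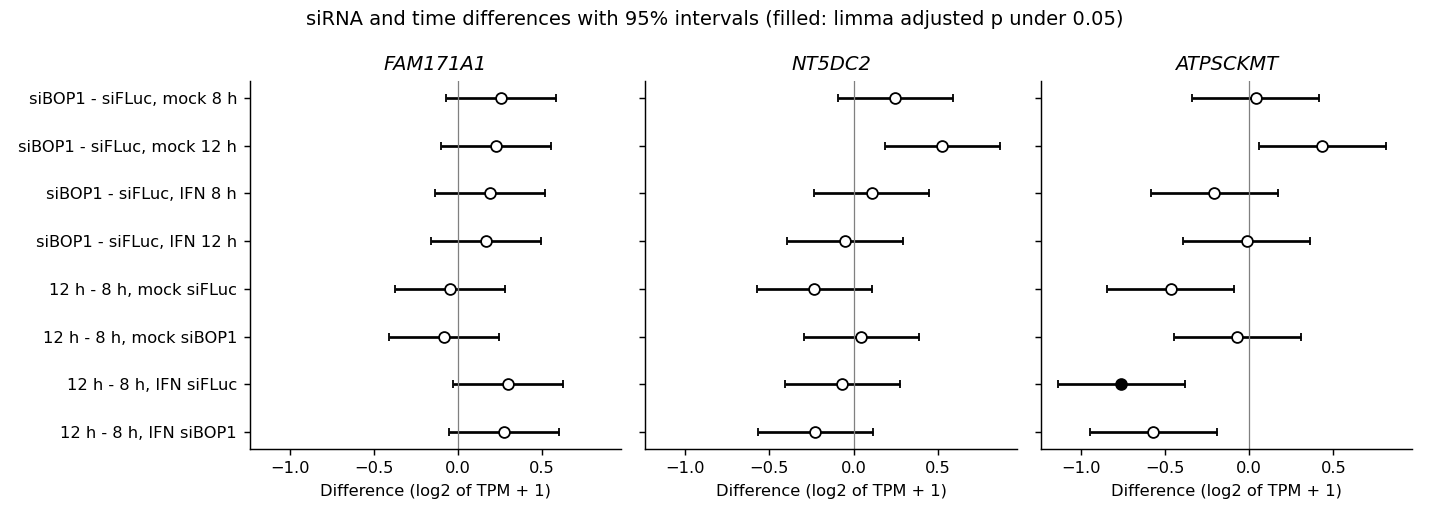
Differences between the siRNAs (upper 4 lines) and between the times (lower 4 lines) for each gene, on the log2(TPM + 1) scale, with 95% intervals from the limma fit over all 24 libraries. The filled point, the only one with an adjusted p under 0.05, is ATPSCKMT in siFLuc IFN cells (-0.76).

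Whether the IFN difference itself depended on the siRNA is given without a test, since it is built from the contrasts that chose the genes. The IFN difference in siBOP1 cells minus that in siFLuc cells was -0.07 and -0.06 for FAM171A1 at 8 h and 12 h (SE 0.22), -0.14 and -0.58 for NT5DC2 (SE 0.23) and -0.25 and -0.45 for ATPSCKMT (SE 0.26). The NT5DC2 value at 12 h was -0.35 without the siFLuc mock library numbered 4, and that of ATPSCKMT -0.26. The IFN difference at 12 h minus that at 8 h was 0.35 and 0.36 for FAM171A1 in siFLuc and siBOP1 cells (SE 0.22), 0.16 and -0.27 for NT5DC2 (SE 0.23) and -0.29 and -0.50 for ATPSCKMT (SE 0.26). The first NT5DC2 value turned to -0.07 without that library. With 1 library left out, both siRNA values of FAM171A1 changed sign, to as much as 0.096 at 8 h and 0.049 at 12 h, in each case without the siBOP1 IFN library numbered 2. ATPSCKMT ran from -0.40 (without siBOP1 IFN library 4) to -0.087 (without siBOP1 IFN library 1) for the siRNA at 8 h. For time in siFLuc cells it ran from -0.49 (without mock 12 h library 4) to -0.076 (without mock 12 h library 1).

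Across the 24 libraries the 3 genes followed each other, with Pearson r of log2 values of 0.968 for FAM171A1 and NT5DC2, 0.963 for NT5DC2 and ATPSCKMT and 0.916 for FAM171A1 and ATPSCKMT. All 24 points share the split between IFN and mock. Taken as deviations from each group's mean, r was 0.328, 0.607 and 0.365 in the same order, over libraries that share their scaling. Among 10599 tested genes with a mean of at least 5 TPM, the 5 most like FAM171A1 were SETD7 (a lysine methyltransferase, r 0.982), ARL6IP5 (0.981), CERK (ceramide kinase, 0.975), TBC1D14 (0.97) and RFLNB (0.969). The 5 most like NT5DC2 were CMTM4 (0.978), SUMF1 (0.971), SETD7 (0.969), GET1 (0.968) and FAM171A1 itself (0.968). For ATPSCKMT they were ARPC1A (a subunit of the Arp2/3 actin nucleator, 0.974), URI1 (0.967), GALNT11 (0.965), NT5DC2 (0.963) and DANCR (0.962). Several changed far less: SETD7 by -0.99 to -0.81, ARL6IP5 by -0.79 to -0.72 and URI1 by -0.85 to -0.54 over the 4 IFN comparisons. By Spearman rho in place of Pearson r, 1 of the 5 genes stayed for FAM171A1, 0 for NT5DC2 and 1 for ATPSCKMT.

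Features of the transcripts were read from GENCODE 29, from 1 coding transcript per gene, and set beside 12579 tested coding genes. The annotated 5′ UTR was short in all 3, with 40 nucleotides for NT5DC2, 13 for ATPSCKMT and 7 for FAM171A1 against a median of 185; no more than 12.1% of tested genes had one as short as that of NT5DC2, 4.94% as that of ATPSCKMT and 3.76% as that of FAM171A1. For FAM171A1 the length depends on the annotation. Its GENCODE gene ends at 15371062, while the window before its RefSeq start begins at 15371290, farther upstream. A 5′ UTR counted from the RefSeq start could be longer, so a short one in all 3 was not established. Other features differed among the 3 genes. G or C at the third codon position, a measure tied to codon optimality in human cells, was 82.4% for NT5DC2, 66.0% for FAM171A1 and 44.2% for ATPSCKMT, against a median of 58.8%. The coding sequences were 557, 890 and 233 codons long and the 3′ UTRs 81, 1272 and 708 nucleotides, in the same order. ATPSCKMT thus had G or C at this position at or above 25.2% of tested genes and NT5DC2 at or above 92.3%.

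The nearest genes were compared because position was not used by the rule. Of the annotated genes within 100 kb, 2 of 5 beside FAM171A1, 4 of 8 beside NT5DC2 and 2 of 14 beside ATPSCKMT passed the filter. CCT5, a subunit of the cytosolic chaperonin that folds actin and tubulin, starts 24 bases from ATPSCKMT on the opposite strand. CCT5 was at 411.6 TPM on average, and in siFLuc cells at 8 h it was at 493, 456 and 535 TPM in mock and at 422, 444 and 503 TPM with IFN, which overlap. Its log2 differences with IFN were -0.12, -0.28, -0.19 and -0.29 (siFLuc 8 h and 12 h, siBOP1 8 h and 12 h; limma adjusted p 0.607, 0.124, 0.308 and 0.0967). The 12 h values passed with the replicate block (adjusted p 0.0064 with siFLuc, 0.00443 with siBOP1), and without the siBOP1 IFN 12 h library numbered 4 the last was -0.39 (adjusted p 0.03). CCT5 thus kept 82.1% to 92.2% of its mock level where ATPSCKMT kept 15.98% to 30.6%; the difference between the genes was not tested.

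CMBL, a hydrolase gene on the other side of CCT5, fell at 12 h by -0.62 in siFLuc and -0.71 in siBOP1 cells (SE 0.18, limma adjusted p 0.0271 and 0.0108), and at 8 h its values were -0.25 and -0.16. These 12 h calls were lost on leaving out the mock library numbered 4 (-0.56, adjusted p 0.079, and -0.50, adjusted p 0.0817). The siFLuc call was also lost without mock library 2 (-0.51, adjusted p 0.122), IFN library 2 (-0.51, adjusted p 0.136) or IFN library 4 (-0.59, adjusted p 0.0634). Beside FAM171A1, NMT2, which attaches myristate to proteins, fell in siBOP1 cells by -1.23 at 8 h and -0.93 at 12 h (SE 0.22, adjusted p 0.000394 and 0.00525), less than FAM171A1 did. In siFLuc cells the NMT2 values were -0.66 and -0.58 (adjusted p 0.0584 and 0.0861), and both passed with the replicate block (adjusted p 0.00574 and 0.0102). Without the siFLuc mock library numbered 4 the NMT2 value at 12 h was -0.83 (adjusted p 0.0114). RPP38, a subunit of RNase P, had values of 0.00 to 0.21, none called.

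UQCC5, which encodes an assembly factor of respiratory complex III, overlaps the start of NT5DC2 on the opposite strand. It fell with IFN by -0.91 in siFLuc cells at 8 h and by -0.93 in siBOP1 cells at 12 h (SE 0.22, limma adjusted p 0.00806 and 0.00554), and was at -0.55 and -0.29 in the other comparisons (adjusted p 0.107 and 0.412). The siBOP1 call was lost without the IFN library numbered 2 (-0.66, adjusted p 0.0548). The library kit was stranded, but the counting setting is not given in the sources used here, so reads of UQCC5 and NT5DC2 from the overlap may not have been kept apart. NISCH, a neighbour on the far side, was called lower in siFLuc cells at 12 h (-0.38, adjusted p 0.0483) and siBOP1 cells at 8 h (-0.51, adjusted p 0.00807). The first NISCH call was lost without any 1 of 5 libraries (adjusted p up to 0.165) and the second without the IFN library numbered 2 (-0.39, adjusted p 0.0698). In siFLuc cells at 8 h NISCH was at -0.34 and was called with the replicate block alone (adjusted p 0.03). PBRM1 (-0.21 to -0.09) and TNNC1 (-0.41 to 0.14) were not called.

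**Figure D4:**
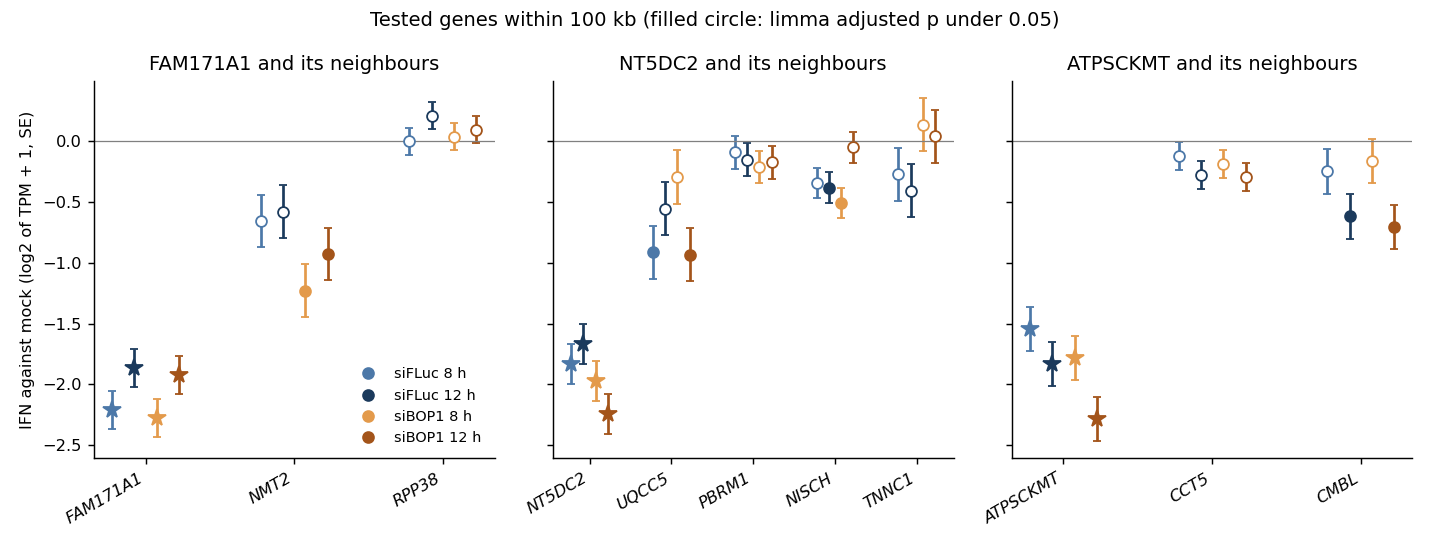
IFN against mock (log2(TPM + 1) scale, whiskers SE) for FAM171A1, NT5DC2 and ATPSCKMT (stars, not tested) and the tested genes within 100 kb of each (circles, filled where the limma adjusted p is under 0.05), for the 4 combinations of siRNA and time. The stars lie between -2.29 and -1.54, and the largest neighbour change is NMT2 in siBOP1 cells at 8 h (-1.23).

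Relatives of the 3 genes were read from 5 lists. In the FAM171 family, FAM171A2 had values of -0.35, -0.44, -0.04 and -0.59 (siFLuc 8 h and 12 h, siBOP1 8 h and 12 h). The last was called (limma adjusted p 0.0318), but not without either mock library numbered 1 or 2 or IFN library 1 or 4. FAM171B had values of -0.52 to -0.16 and was not called. With the replicate block it was called lower at 12 h with either siRNA (limma adjusted p 0.0154 and 0.0293). The block called 15.8% (siFLuc) and 16.6% (siBOP1) of all genes lower there. FAM171A2 and FAM171B were low, at 1.61 and 2.27 TPM in mock cells.

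Of the other 5'-nucleotidases 8 of 11 were tested, and 3 rose in each IFN comparison, where 5.77%, 7.06%, 5.99% and 7.17% of all genes were called higher. NT5C3A, a pyrimidine nucleotidase, rose by 3.81, 3.56, 3.84 and 3.62 (SE 0.14, limma adjusted p at most 1.71e-14). NT5E, the surface enzyme CD73 that makes adenosine, rose by 1.13, 1.88, 1.21 and 1.60 (SE 0.20, adjusted p at most 0.000479), and NT5C2 by 0.85, 0.79, 0.80 and 0.89 (SE 0.19, adjusted p at most 0.00667). NT5DC2 was at -2.25 to -1.67 on the same scale in the comparisons where these relatives were higher. At 12 h NT5C, NT5C3B and the mitochondrial NT5M were called lower with each siRNA (6.43% and 7.58% of all genes were): NT5C by -0.33 and -0.30, NT5C3B by -0.38 and -0.32 and NT5M by -0.62 and -0.99. Only the siBOP1 call of NT5M (adjusted p 0.000643) held when each library was left out in turn; the other 5 were each lost without any 1 of 2 to 5 libraries. NT5DC1 (-0.28 to -0.07) and NT5DC3 (-0.33 to -0.20), the nearest namesakes of NT5DC2, were not called. With the replicate block NT5C, NT5C3B and NT5DC1 were also called lower in siBOP1 cells at 8 h (adjusted p 0.0187, 0.00937 and 0.0332). In that comparison the block called 20.4% of all genes lower. The list's medians were -0.12, -0.22, -0.24 and -0.26.

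ATP synthase is the complex whose c subunit ATPSCKMT methylates, and 26 subunit and assembly genes were tested. In the 4 comparisons 2, 3, 1 and 5 of the 26 were called lower, where 5.07%, 6.43%, 9.11% and 7.58% of all genes were, and 0 higher. The list's medians were -0.12, -0.17, -0.10 and -0.20. With the replicate block 6, 12, 3 and 8 were called lower, where the share of all genes rose too, to 12.7%, 15.8%, 20.4% and 16.6%. The largest of the called changes was that of ATP5PB, a subunit of the peripheral stalk, at -0.31, -0.45, -0.32 and -0.48 (limma adjusted p 0.0381, 0.00257, 0.025 and 0.00135). ATP5MJ (-0.40), ATP5IF1 (-0.30) and ATP5F1A (-0.28) were called in 1 or 2 comparisons, and each of these 5 calls was lost on leaving out any 1 of 2 to 5 libraries. The ATP5PB calls at 12 h held when each library was left out in turn, and those at 8 h were lost without any 1 of 3 or 4 libraries.

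Of the other methyltransferases of the same fold 13 of 14 were tested, and 0, 1, 2 and 1 were called lower, beside the 5.07%, 6.43%, 9.11% and 7.58% of all genes. With the replicate block 1, 2, 3 and 3 were, where 12.7%, 15.8%, 20.4% and 16.6% of all genes were called lower. EEF2KMT (-0.34, -0.36, -0.40 and -0.45) was called in each comparison with the block (limma adjusted p at most 0.00726) and in none without it. Without the block the called genes were METTL21A and EEF1AKMT4. METTL21A had values of -0.31, -0.46, -0.60 and -0.40 (limma adjusted p 0.162, 0.024, 0.00357 and 0.0495). EEF1AKMT4 was at -0.41 in siBOP1 cells at 8 h (adjusted p 0.0491). The METTL21A call in siBOP1 cells at 8 h held when each library was left out in turn, its calls at 12 h were lost in 3 (siFLuc) and 4 (siBOP1) of 6 cases, and the EEF1AKMT4 call in all 6. ANTKMT, the closest relative of ATPSCKMT and the methyltransferase of the mitochondrial ADP/ATP carrier, had values of -0.24, -0.05, -0.16 and -0.15 and was not called. The list's medians were -0.09, -0.24, -0.19 and -0.15.

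For FAM171A1 the related list was that of actin stress fibre genes, of which 28 of 29 were tested. In the 4 comparisons 4, 3, 7 and 3 of the 28 were called lower (5.07%, 6.43%, 9.11% and 7.58% of all genes) and 3, 3, 3 and 4 higher (5.77%, 7.06%, 5.99% and 7.17%), with medians of -0.10, -0.12, -0.16 and -0.08. With the replicate block 8, 9, 12 and 9 were called lower (12.7%, 15.8%, 20.4% and 16.6% of all genes) and 3, 5, 4 and 4 higher (8.24%, 11.2%, 8.56% and 11.4%). MYH10, a non-muscle myosin heavy chain, fell in 3 comparisons, by -0.50, -0.90 and -0.65 (siFLuc 8 h, siBOP1 8 h and 12 h; limma adjusted p 0.0153, 3.67e-05 and 0.00136). CNN2 (calponin 2) fell in all 4, by -0.68, -0.42, -0.76 and -0.36 (adjusted p at most 0.0145), and PXN (paxillin) was called in siBOP1 cells at 8 h (-0.66, adjusted p 0.00551). MYL12A, a myosin light chain, rose by 0.53, 0.64, 0.60 and 0.57 (adjusted p at most 0.00142). The CNN2 call in siBOP1 cells at 12 h was lost without IFN library 1, and the siFLuc call of MYH10 without any 1 of 3 libraries.

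**Figure D5:**
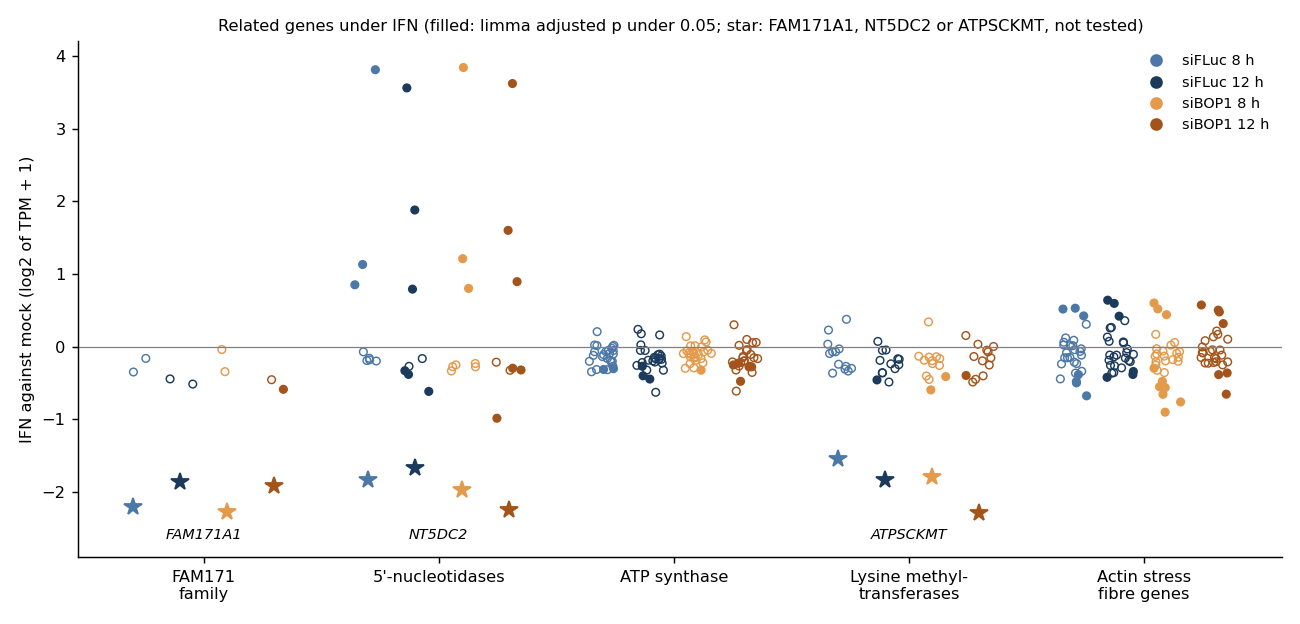
IFN against mock (log2(TPM + 1) scale) for the tested genes of 5 lists (circles, filled where the limma adjusted p is under 0.05) and for FAM171A1, NT5DC2 and ATPSCKMT (stars, not tested, placed in their own families), coloured by siRNA and time. The stars lie below all other points of their lists, and NT5C3A is highest, at 3.56 to 3.84.

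Together the 5 lists held 77 tested genes besides the 3, of which 6, 10, 10 and 13 were called lower and 6, 6, 6 and 7 higher in the 4 comparisons. As shares these were 7.79%, 13.0%, 13.0% and 16.9% lower, beside the 5.07%, 6.43%, 9.11% and 7.58% of all genes. The shares higher were 7.79%, 7.79%, 7.79% and 9.09%, beside 5.77%, 7.06%, 5.99% and 7.17% of all genes. In a fit of the 10601 genes with a mean of at least 5 TPM, 6.62%, 8.64%, 11.5% and 10.3% were called lower. The shares called higher there were 7.05%, 8.66%, 7.28% and 8.71%. The share of all genes called thus depended on the filter for level. No test compared the lists with all genes.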

How the data were processed

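The authors deposited 1 table of TPM values (transcript abundance per length) for 24 libraries of polyadenylated RNA, made with a stranded mRNA kit per the labels' protocols. The aligner, quantifier, genome build and annotation are not given in the sources used here, and each column sums to 1000000 TPM, so depth is unknown. Columns were matched to groups by name: 16 carry a replicate number of the labels, and 8, 1 per group, the number 4, used as members of their group. Symbols came from a table of Ensembl IDs (60340 of 60609 rows), and positions from GENCODE 29 (58502 rows), which is not the table's exact annotation.

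Genes at 1 TPM or more in at least 3 libraries (16062) entered a limma fit (version 3.58.1, R 4.3.3) of log2(TPM + 1): 1 mean per group over the 24 libraries, eBayes with an intensity trend, Benjamini-Hochberg adjustment within each comparison, threshold 0.05. The fit was tried on simulated data with independent noise in each library, which leaves out deviations that libraries share. The genes described and all lists were chosen with earlier results of these data known. Genes were named by rule: the 3 genes, BOP1 and IFIT1, the ranks around the 5 largest falls, tested neighbours within 100 kb, the 5 genes with the highest r per gene, lists of at most 12 genes in full and, in longer lists, up to 4 called genes with the largest change. EEF2KMT, called with the replicate block alone, and ANTKMT, not called, were named outside this rule.

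The main fit did not pair libraries, and column numbers served as pairs within a time in an alternative alone, the replicate block. Deviations from group means correlated across genes at 0.115 to 0.508 for same-numbered libraries in 8 comparisons. All values above 0.268 were those of number 4. Over the libraries numbered 1 and 2 alone, about their own group means, the correlation was -0.01 to 0.16, above 0.1 in 3 of 8. Whether the numbers 1 and 2 pair libraries was thus not settled. Across the times the correlation passed 0.1 in 4 of 12 cases, so numbers were not taken to pair there. The alternatives changed the pseudocount (0.1), the filter (any value above 0, or 5 TPM on average), the scaling (quantile or median-of-ratios), the trend (none), the libraries fitted (those compared), and added a replicate block, the libraries numbered 1 and 2 alone, each library left out in turn, and Spearman rho for likeness.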

Additional observations from a re-analysis of the deposited data

How the results depend on the processing

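The IFN differences of the 3 genes kept their sign under every alternative run. With a pseudocount of 0.1 those of FAM171A1 were -2.79, -2.27, -2.77 and -2.29 (siFLuc 8 h and 12 h, siBOP1 8 h and 12 h) and those of ATPSCKMT at 12 h -2.13 and -2.62. With the libraries numbered 1 and 2 alone ATPSCKMT was at -2.10 in siFLuc cells at 12 h. Leaving out each library gave -1.90 to -1.54 for NT5DC2 under IFN in siFLuc cells at 12 h, -0.71 to -0.35 for its siRNA by IFN difference at 12 h and -0.068 to 0.30 for its time by IFN difference in siFLuc cells.

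The ATPSCKMT time difference under IFN in siFLuc cells was -0.83 to -0.65 with a library left out, called in 3 of 6 cases, and -0.76 without a call when just the libraries of both groups were fitted; in siBOP1 cells it was -0.67 and -0.73, called, under median-of-ratios and quantile scaling. The replicate block called the NT5DC2 siRNA difference in mock cells at 12 h (0.53) and changed no other siRNA or time call of the 3 genes. A block within each time holds no comparison of the times, so for these a block across times was added after seeing the data.

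Some uncalled values near 0 changed sign. The libraries numbered 1 and 2 alone gave 0.017 for the FAM171A1 time difference in siBOP1 mock cells, and 0.10 and 0.11 for that of NT5DC2 in siFLuc mock and IFN cells. With a library left out, NT5DC2 spanned -0.16 to 0.029 (siRNA, IFN 12 h), -0.050 to 0.12 (time, siBOP1 mock) and -0.15 to 0.037 (time, siFLuc IFN), and ATPSCKMT -0.030 to 0.10 (siRNA, mock 8 h) and -0.13 to 0.065 (siRNA, IFN 12 h). Among neighbours, the same gave -0.10 to 0.053 and -0.016 to 0.093 for RPP38 (siFLuc and siBOP1, 8 h), -0.11 to 0.016 for NISCH and -0.25 to 0.20 for TNNC1 (siBOP1 12 h), and median-of-ratios rescaling 0.019 for NISCH.

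Counts over the 5 related lists moved most. Genes called lower (6, 10, 10 and 13) were 14, 24, 18 and 23 after quantile normalization and 15, 27, 21 and 25 with the replicate block, where the shares of all genes were 5.91%, 9.7%, 7.91% and 10.7%, and 12.7%, 15.8%, 20.4% and 16.6%. They were 6 and 5 at 12 h after median-of-ratios rescaling (5.0% and 5.33% of all genes). In siBOP1 cells they were 16 and 21 with the libraries numbered 1 and 2 alone (13.6% and 13.7% of all genes). With only the groups compared 3 were higher in siFLuc cells at 12 h (4.16% of all genes). In that fit 2, 2 and 6 were lower (siFLuc 8 h and 12 h, siBOP1 12 h), where 2.71%, 1.76% and 4.19% of all genes were. With a library left out they ran from 2 to 6, 6 to 12, 8 to 11 and 6 to 12; the smallest counts came on leaving out library 2 of siFLuc IFN 8 h, library 4 of siFLuc mock 12 h or library 1 of siFLuc IFN 12 h, and library 2 of siBOP1 IFN 12 h. No share of all genes was set beside the counts with a library left out, so nothing about the lists is read from them. The causes were not tested. By Spearman rho, 1 of the 5 most like genes was shared for FAM171A1, 0 for NT5DC2 and 1 for ATPSCKMT. The unknown depth limits what can be said of FAM171A1 under IFN, at 1.045 to 2.977 TPM.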
